A study of Mus musculus with 10 samples.

Results

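Six2, Cited1, Osr1, Eya1, Sall1, Meox1, Crym and Pax2 were followed in RNA-seq of whole embryonic mouse kidneys. They are 8 genes of the 35663 entries of the deposited expression table, taken by gene symbol because they mark or control nephron progenitors, and each symbol was found. Kidneys were from E13.5 embryos of the strain C57/b6. The 3 groups were wild-type kidneys (4 libraries), kidneys of the genotype Foxd1-Cre, here called Foxd1GC control (3 libraries), and kidneys of the genotype Foxd1-Cre with both floxed copies of *Ntn1*, here called Ntn1SPKO (3 libraries). The Foxd1GC allele makes Cre from the *Foxd1* locus in stromal progenitors and is carried by control and mutant kidneys alike. Only Ntn1SPKO kidneys are labelled with floxed *Ntn1*, which encodes the secreted guidance protein netrin 1. They lose *Ntn1* in the stroma and not in nephron progenitors. The label of the control kidneys does not name their *Ntn1* alleles. The labels do not say whether libraries came from separate embryos, so p-values measure only the spread between these libraries. The comparisons address whether loss of a stromal signal went with a different level of the progenitor programme, and whether the Foxd1GC control genotype did.

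Nephron progenitors form the cap mesenchyme around each tip of the branching ureteric bud, next to the Foxd1-expressing stroma. They either renew themselves or answer Wnt9b from the bud by forming a pretubular aggregate, a renal vesicle and then the nephron epithelium. Six2 holds progenitors in the self-renewing state, Eya1, Pax2, Sall1 and Osr1 specify and maintain them, and Cited1 marks the earliest, least committed progenitors.

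All values are FPKM (fragments scaled by transcript length and by library size), which are per length and can be compared between genes. The spacing of low values put the depth of each library at roughly 28 to 35 M fragments. At that depth, which is an estimate, the members stood on about 350 fragments (*Meox1*, lowest library) to 8900 fragments (*Sall1*, highest library), and counting error was at most 5.3% of a value. The progenitor label was checked with *Six2*, *Cited1*, *Gdnf* and *Itga8*, each of them at 17.6 FPKM or more in all 10 libraries. *Six2* and *Cited1* are members themselves, and detection in whole kidneys does not show which cells gave the RNA. *Ntn1* was lower in each Ntn1SPKO library than in any other library, at 16.3, 13.1 and 10.7 FPKM against 40.7, 24.2 and 51.4 FPKM in control kidneys (log2 fold change −1.48 ± 0.29, SE), although its adjusted p was 0.447 in limma, a linear model fitted over all genes. Foxd1GC control replicate 3 stood apart. Its 11 skeletal muscle genes summed to 869 FPKM (9.25 to 187 FPKM in the other libraries), its 10 ureteric epithelium genes to 93.0 FPKM (221 to 269 FPKM elsewhere) and its 12 genes of the committed nephron to 54.1 FPKM (95.6 to 184 FPKM elsewhere). Transcripts of 4 Y-linked genes were present in wild-type replicate 3, Foxd1GC control replicate 2 and all 3 Ntn1SPKO libraries, with sums of 88.6 to 98.1 FPKM, against at most 1.02 FPKM in the other 5 libraries. In bulk RNA of whole kidneys, fewer progenitors and less RNA per progenitor cannot be told apart.

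*Six2*, the homeodomain factor of self-renewal, was the highest of the 8 genes by group mean in each group. Its levels were 65.3, 63.1, 77.4 and 84.7 FPKM in wild-type, 79.9, 73.8 and 96.4 FPKM in Foxd1GC control and 88.9, 92.5 and 74.6 FPKM in Ntn1SPKO kidneys. *Eya1*, the phosphatase and coactivator that works with Six2, read 52.4, 56.8, 55.6 and 63.2 FPKM in wild-type, 64.4, 57.1 and 60.3 FPKM in control and 73.8, 69.6 and 63.4 FPKM in Ntn1SPKO kidneys. The 3 groups of *Six2* overlapped, whereas every Ntn1SPKO value of *Eya1* lay above every wild-type value, with 63.4 against 63.2 FPKM at the closest. *Eya1* was the steadiest member, with a highest library only 1.41 times the lowest.

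*Pax2*, a paired-box factor made both in the cap mesenchyme and in the ureteric epithelium, read 60.7, 63.4, 45.5 and 63.0 FPKM in wild-type, 51.0, 62.2 and 31.2 FPKM in control and 71.6, 68.2 and 60.8 FPKM in Ntn1SPKO kidneys. *Sall1*, a zinc finger factor of the cap that is needed for bud outgrowth, read 59.2, 62.0, 52.1 and 67.1 FPKM in wild-type, 53.8, 57.7 and 46.7 FPKM in control and 70.7, 68.3 and 56.3 FPKM in Ntn1SPKO kidneys. Both genes were lowest in control replicate 3 and highest in Ntn1SPKO replicate 1, and groups overlapped for both. *Osr1*, an odd-skipped zinc finger factor of the intermediate mesoderm that also remains in part of the stroma, read 19.8, 19.6, 24.3 and 25.7 FPKM in wild-type, 26.8, 22.4 and 37.1 FPKM in control and 25.9, 26.1 and 24.6 FPKM in Ntn1SPKO kidneys. Its 3 mutant libraries had a coefficient of variation of 3.14%, the smallest of any member in any group and below the estimated counting error of up to 4.4% for this gene.

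*Cited1*, a transcriptional coregulator that binds CBP and p300 and has no DNA-binding domain, read 38.4, 37.6, 64.2 and 57.4 FPKM in wild-type, 54.4, 40.5 and 70.1 FPKM in control and 46.8, 52.0 and 42.2 FPKM in Ntn1SPKO kidneys. *Crym*, mu-crystallin, binds thyroid hormone in the cytosol and is a progenitor marker more than a transcription factor. It read 34.4, 38.5, 60.1 and 50.3 FPKM in wild-type, 52.9, 43.9 and 64.3 FPKM in control and 47.9, 50.3 and 42.3 FPKM in Ntn1SPKO kidneys. For both genes the mutant values fell inside the wild-type range, and wild-type replicates 1 and 2 were the lowest 2 libraries of the series. *Meox1*, a homeodomain factor known from the somites as well as from the cap, was the lowest member in each group mean, with 18.9, 17.6, 21.5 and 22.5 FPKM in wild-type, 21.5, 14.96 and 34.99 FPKM in control and 19.0, 21.7 and 16.7 FPKM in Ntn1SPKO kidneys. Its lowest and its highest library, 2.34 times apart, were both Foxd1GC control kidneys.

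**Figure D1:**
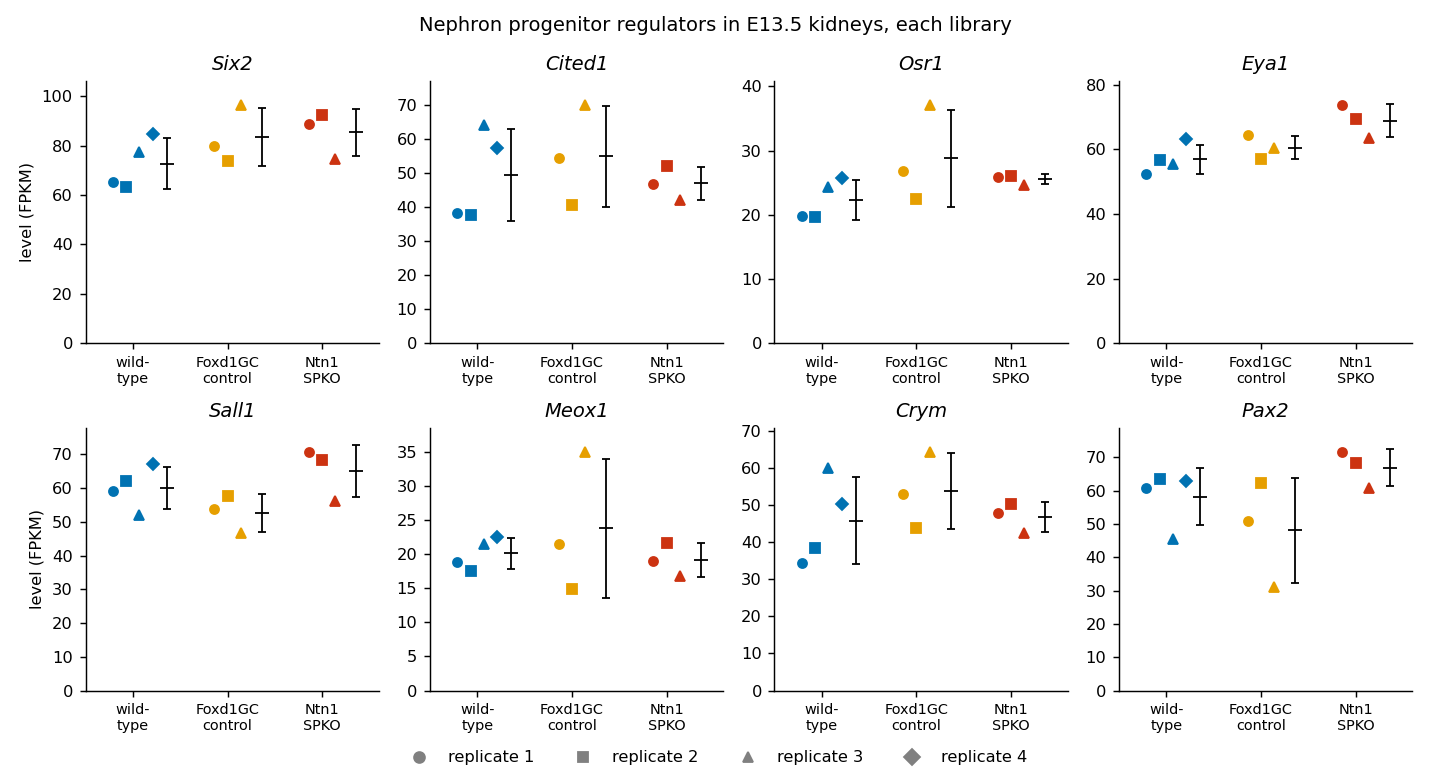
Level of each of the 8 regulators in FPKM (vertical axis, from 0) in wild-type (n = 4), Foxd1GC control (n = 3) and Ntn1SPKO (n = 3) kidneys; each marker is a library, its shape is the replicate number, and the bar beside each group is the mean ± SD. Groups overlap in every panel except wild-type and Ntn1SPKO for *Eya1*, and control replicate 3 (orange triangle) is at the top for *Six2*, *Cited1*, *Osr1*, *Meox1* and *Crym* and at the bottom for *Sall1* and *Pax2*.

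The order of the levels was nearly the same in the 3 groups at its top and bottom and not in its middle. In wild-type kidneys the means were 72.6 ± 10.2 FPKM for *Six2*, 60.1 ± 6.27 for *Sall1*, 58.2 ± 8.51 for *Pax2*, 57.0 ± 4.52 for *Eya1*, 49.4 ± 13.48 for *Cited1*, 45.8 ± 11.7 for *Crym*, 22.4 ± 3.11 for *Osr1* and 20.1 ± 2.26 for *Meox1* (SD, n = 4). Of the 7 steps between neighbours in that order, only the one from *Crym* to *Osr1* separated the ranges of the libraries. In Ntn1SPKO kidneys 4 of the steps did: *Six2* (85.3 ± 9.48) to *Eya1* (68.9 ± 5.22), *Sall1* (65.1 ± 7.72) to *Cited1* (47.0 ± 4.91), *Crym* (46.8 ± 4.09) to *Osr1* (25.6 ± 0.803) and *Osr1* to *Meox1* (19.1 ± 2.46 FPKM, SD, n = 3). In control kidneys only *Six2* (83.4 ± 11.7) stood clear of its neighbour, *Eya1* (60.6 ± 3.67 FPKM, SD, n = 3). *Six2* exceeded the member next in the order of its group in all 10 libraries, and *Osr1* exceeded *Meox1* in all 10.

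RefSeq gave promoter windows (250 bases before to 50 after a start, GRCm38.p6) for 4 of the 8 members, 10 windows in all: 1 for *Six2* and 3 each for *Cited1*, *Sall1* and *Pax2*. None was given for *Osr1*, *Eya1*, *Meox1* or *Crym*. The window nearest the annotated gene start is shown for each of the 4, because *Six2* and *Cited1* belong to the genes that were highest in control replicate 3 and *Sall1* and *Pax2* to those that were lowest there. Capitals mark a CCAAT box (CCAAT, or ATTGG on the other strand) or a TATA box (TATAAA, or TTTATA). Each is written 5′ to 3′ on the strand of its gene.
Six2, chr17:85688205-85688504, minus strand: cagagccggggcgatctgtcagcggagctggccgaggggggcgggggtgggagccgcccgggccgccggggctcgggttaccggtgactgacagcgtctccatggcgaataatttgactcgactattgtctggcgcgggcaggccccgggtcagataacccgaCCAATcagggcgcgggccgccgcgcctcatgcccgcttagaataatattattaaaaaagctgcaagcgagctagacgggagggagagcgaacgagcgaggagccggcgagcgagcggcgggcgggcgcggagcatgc
Cited1, chrX:102252132-102252431, minus strand: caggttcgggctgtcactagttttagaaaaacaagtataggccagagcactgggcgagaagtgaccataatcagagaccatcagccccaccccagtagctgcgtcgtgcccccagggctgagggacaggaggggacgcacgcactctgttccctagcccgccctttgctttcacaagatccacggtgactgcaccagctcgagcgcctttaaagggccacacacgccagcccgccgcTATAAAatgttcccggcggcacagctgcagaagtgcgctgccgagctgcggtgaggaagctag
Sall1, chr8:89044113-89044412, minus strand: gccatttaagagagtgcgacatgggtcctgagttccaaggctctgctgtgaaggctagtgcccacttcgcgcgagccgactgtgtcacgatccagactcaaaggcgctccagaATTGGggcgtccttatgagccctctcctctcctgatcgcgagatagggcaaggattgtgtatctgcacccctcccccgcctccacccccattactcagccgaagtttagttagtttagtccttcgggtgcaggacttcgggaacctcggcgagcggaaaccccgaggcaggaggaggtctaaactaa
Pax2, chr19:44755502-44755801, plus strand: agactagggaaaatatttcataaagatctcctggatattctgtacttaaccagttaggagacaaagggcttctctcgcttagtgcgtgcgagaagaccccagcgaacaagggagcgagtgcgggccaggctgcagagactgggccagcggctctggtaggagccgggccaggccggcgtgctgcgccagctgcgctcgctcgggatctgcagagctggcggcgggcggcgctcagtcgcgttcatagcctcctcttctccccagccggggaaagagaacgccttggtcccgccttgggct

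In these windows *Six2* held a CCAAT box at bases 164 to 168, *Sall1* one on the other strand at bases 114 to 118 and *Cited1* a TATA box at bases 238 to 243, counted from the first base shown, whereas none of the 3 *Pax2* windows held either. Of 32851 windows of the same length, 37.4% held a CCAAT box and 13.6% a TATA box on either strand. Neither the TCF/LEF letters CTTTGAT (3.73% of all windows) nor the letters TCAGGTTTC of the MEF3 site, which Six2 and its paralogues bind (0.429%), occurred in any of the 10 member windows, on either strand. The 4 windows shown were 67.3% (*Six2*), 59.7% (*Cited1*), 57.3% (*Sall1*) and 61.7% (*Pax2*) G and C, above the median of 52.7% over all windows. A match describes the letters of a window and nothing about binding. The genes themselves lie, in GENCODE M21 on GRCm38, at chr17:85684277-85688274 (*Six2*), chrX:102247381-102252181 (*Cited1*), chr12:9570116-9581500 (*Osr1*), chr1:14168954-14310235 (*Eya1*), chr8:89027235-89044162 (*Sall1*), chr11:101877510-101894374 (*Meox1*), chr7:120186380-120202111 (*Crym*) and chr19:44756045-44837871 (*Pax2*), all protein coding.

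No regulator passed the test between Ntn1SPKO and Foxd1GC control kidneys. *Six2* differed by a log2 fold change of 0.04 ± 0.13 (SE, 95% confidence interval −0.27 to 0.34, limma adjusted p = 0.904), and its mutant mean was 2.32% above the control mean. *Pax2* had the largest difference, 0.53 ± 0.25 (interval −0.07 to 1.12), followed by *Sall1* at 0.30 ± 0.12 (0.02 to 0.59) and *Eya1* at 0.18 ± 0.08 (−0.01 to 0.38), and each of these 3 genes lay above the control mean in 3 of 3 mutant libraries. *Meox1* at −0.23 ± 0.30, *Cited1* at −0.20 ± 0.20, *Crym* at −0.18 ± 0.15 and *Osr1* at −0.14 ± 0.18 lay below the control mean in 3 of 3 mutant libraries. None of these differences held up against the replicate spread after adjustment over the 14550 genes tested. The smallest adjusted p was 0.447 (limma, for *Eya1*, *Sall1* and *Pax2*), and exact permutation p-values ran from 0.2 to 0.9, where 3 against 3 cannot go below 0.1.

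A gene counted as called when its groups differed by 2-fold or more and its adjusted limma p was under 0.1, which 0 of the 8 members and 0.055% of all genes tested did. At an unadjusted p under 0.05 the count was 1, *Sall1*, where 10.7% of all genes passed. No member had groups that did not overlap, against 11% of genes that were higher and 8.91% that were lower without overlap. The median log2 fold change of the members was −0.05, and that of all genes tested was 0.007. The intervals put a bound on what could have been missed: for 7 of the 8 members they lay wholly inside a 2-fold change in either direction, and only that of *Pax2* reached past it.

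Control replicate 3 carried much of the *Pax2* difference, which was 0.24 ± 0.11 without it and 0.74 ± 0.21 without control replicate 2. Without control replicate 3, *Osr1* and *Meox1* changed sign (0.06 and 0.09), *Cited1* came to −0.003, *Crym* to −0.0448 and *Six2* to 0.15, and *Sall1* no longer passed an unadjusted p under 0.05 (0.22 ± 0.11). *Eya1* stayed at 0.18 ± 0.09. With embryo sex as a covariate, which only control replicate 2 links to the mutant libraries, *Pax2* came to 0.10 ± 0.27, *Sall1* to 0.17 and *Six2* to 0.20, and *Cited1* (0.21), *Osr1* (0.19), *Meox1* (0.35) and *Crym* (0.09) changed sign. The parts of skeletal muscle RNA, of ureteric RNA and of sex in these differences were not tested.

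Against wild-type kidneys *Eya1* was the one member whose groups separated. It was 0.27 ± 0.08 higher in Ntn1SPKO kidneys on the log2 scale (interval 0.08 to 0.47), 20.98% by means, and higher in 3 of 3 mutant libraries than in any of the 4 wild-type libraries. The limma p was 0.0125 before and 0.628 after adjustment over 14432 genes, and the exact permutation p was 0.0571, so the difference did not pass. Leaving out each library in turn gave 0.22 to 0.33, and embryo sex as a covariate 0.31. *Six2* (0.24 ± 0.13), *Pax2* (0.21 ± 0.13), *Osr1* (0.20 ± 0.11) and *Sall1* (0.11 ± 0.11) were also above wild-type by their means, and *Crym* (0.06 ± 0.19), *Cited1* (−0.04 ± 0.21) and *Meox1* (−0.07 ± 0.12) were within 1 SE of it. Adjusted p-values of these 7 were 0.947 to 0.986 (limma).

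The counts against wild-type were 0 of 8 members called (0.0485% of all genes), 1 at an unadjusted p under 0.05 (5.76%), 1 higher without overlap (3.56%) and 0 lower without overlap (3.54%). The median of the members was 0.16 and that of all genes tested 0.003. All 8 intervals lay inside a 2-fold change. With sex as a covariate *Six2* came to 0.13, *Osr1* to 0.0703, *Sall1* to 0.31, *Meox1* to −0.18, *Cited1* to −0.45 ± 0.25 and *Crym* to −0.36 ± 0.21, and *Pax2* came to 0.55 ± 0.09 with an adjusted p of 0.0184 in limma, short of 2-fold. Those values rest on wild-type replicate 3, the only wild-type library with Y-linked transcripts and the one with the lowest *Pax2* of its group. That library also had the largest summed FPKM of the series, 1002638, so sex and other traits of this library cannot be told apart there.

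Foxd1GC control kidneys, which carry the Cre allele and whose label names no *Ntn1* allele, also showed no member past the test against wild-type. *Osr1* had the largest mean difference upward, 0.34 ± 0.18 (interval −0.08 to 0.76, 28.6% by means), and *Pax2* the largest downward, −0.32 ± 0.23 (−0.86 to 0.23). *Crym* (0.25 ± 0.21), *Six2* (0.20 ± 0.14), *Meox1* (0.16 ± 0.26), *Cited1* (0.16 ± 0.25), *Eya1* (0.09 ± 0.09) and *Sall1* (−0.19 ± 0.11) lay between. The smallest adjusted p was 0.665 (limma) and the exact permutation p-values were 0.171 to 0.743, where 3 against 4 can reach 0.0286. Of the members 0 were called (0.00685% of 14594 genes), 0 passed an unadjusted p under 0.05 (7.06%), and 0 were higher or lower without overlap (4.04% of genes in each direction). Without control replicate 3 *Osr1* came to 0.14, *Crym* to 0.11, *Six2* to 0.0909, *Sall1* to −0.10 and *Pax2* to −0.0329, and *Meox1* (−0.16) and *Cited1* (−0.03) changed sign. The 3 comparisons share groups, so their values are not independent of each other.

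**Figure D2:**
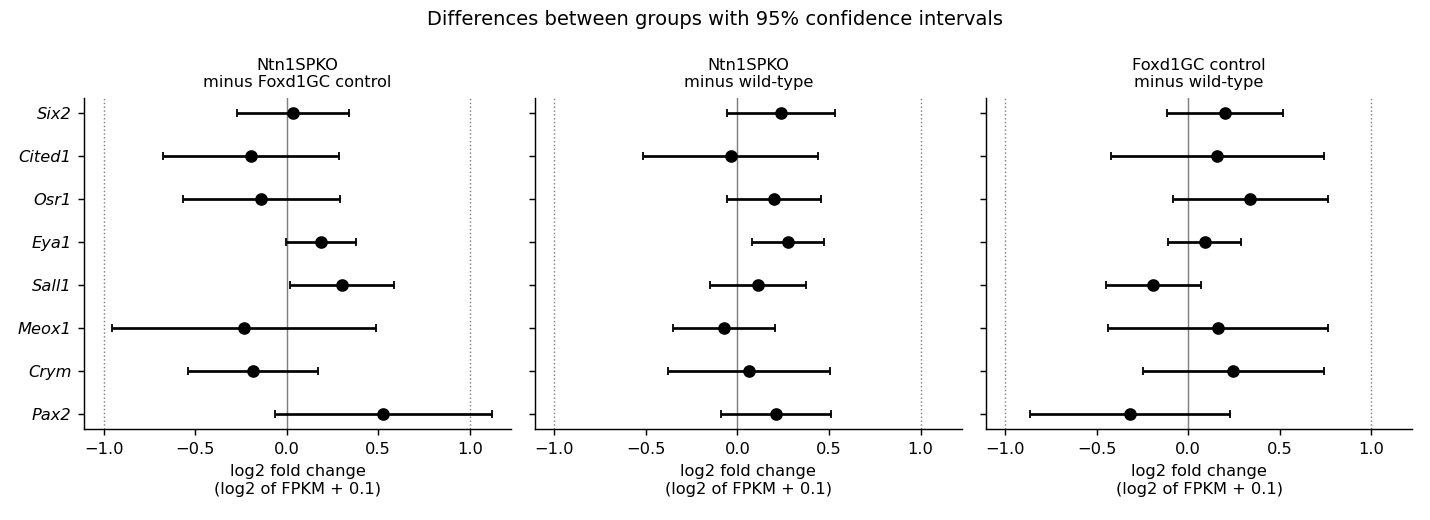
Log2 fold change of each regulator (horizontal axis, on the log2(FPKM + 0.1) scale) in the 3 comparisons, with limma 95% confidence intervals; dotted lines mark a 2-fold change. Only *Sall1* in Ntn1SPKO against Foxd1GC control and *Eya1* in Ntn1SPKO against wild-type have an interval that leaves out 0, and only the *Pax2* interval in Ntn1SPKO against control passes a dotted line.

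Several of the 8 genes varied together between libraries. In control replicate 3 *Meox1* was 0.78, *Osr1* 0.58, *Cited1* 0.51, *Crym* 0.43 and *Six2* 0.29 above their means over the 10 libraries on the log2 scale, while *Pax2* was 0.85 and *Sall1* 0.34 below theirs and *Eya1* was near its mean. Wild-type replicates 1 and 2 showed the converse in part, with *Cited1*, *Crym*, *Osr1* and *Six2* each lower than average by 0.27 or more and *Pax2* above its average by 0.11 and 0.17. *Meox1* was lower there by only 0.11 and 0.21, *Sall1* was near its mean (0.0067 and 0.0736), and *Eya1* was lower by 0.23 and 0.11. In Ntn1SPKO replicates 1 and 2 *Six2* was above its mean together with *Eya1*, *Sall1* and *Pax2*.

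**Figure D3:**
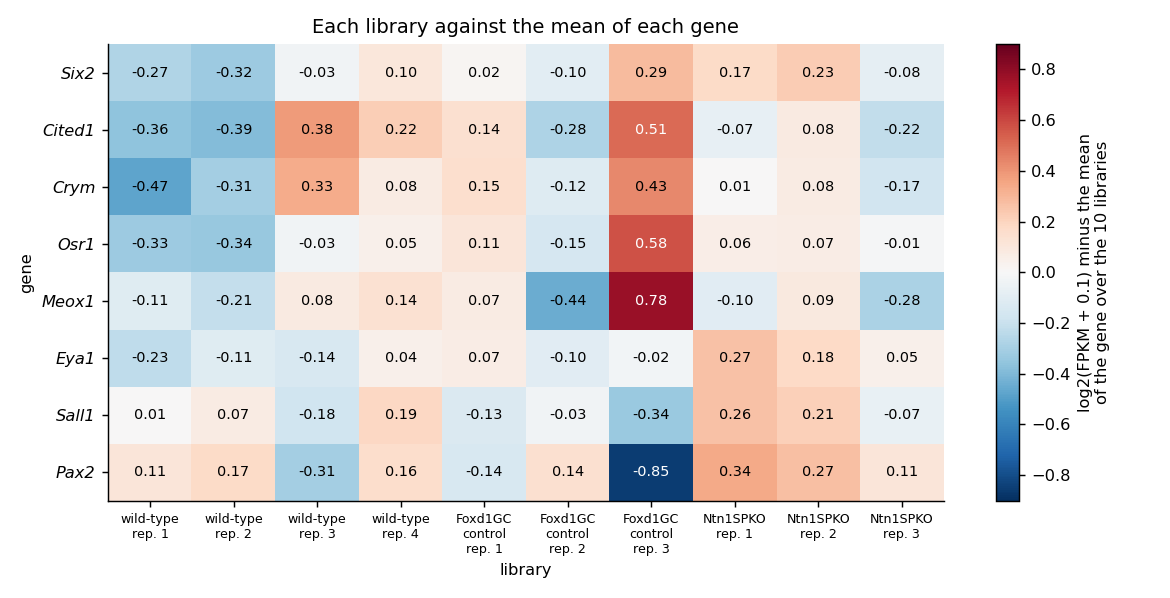
Each regulator (rows) in each of the 10 libraries (columns) as log2(FPKM + 0.1) minus the mean of that gene over all libraries; red is above and blue below the mean, and the number in a cell is the difference. *Pax2* and *Meox1* in Foxd1GC control replicate 3, at −0.85 and 0.78, are the most extreme cells.

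*Cited1* and *Crym* had the highest Pearson r of the 28 pairs of members (Pearson r = 0.955, permutation p = 1e-05; Spearman rho = 0.939, permutation p = 0.00019, n = 10 libraries). The adjusted p over 60 relations was 0.0003. Each r was also taken without the 2 libraries farthest from the median of the first gene named. Here these were control replicate 3 and wild-type replicate 2, and r was 0.923, and 0.936 without control replicate 3 alone. *Sall1* and *Pax2* had the highest Spearman rho (r = 0.894, permutation p = 1e-05, adjusted 0.0003; rho = 0.952, permutation p = 0.0001). Their r was 0.84 without control replicate 3 and Ntn1SPKO replicate 1, and 0.877 without control replicate 3 alone. *Six2* followed *Osr1* (r = 0.879, permutation p = 0.00016, adjusted 0.0024; rho = 0.915, permutation p = 0.00056). That r was 0.854 without wild-type replicate 2 and control replicate 3, and 0.905 without control replicate 3 alone. *Six2* and *Pax2*, in contrast, had r of −0.322 (permutation p = 0.378, adjusted 0.49; rho = −0.0061, permutation p = 1), which was 0.367 and 0.213 in the same leave-outs as for *Six2* and *Osr1*. The smallest p that 100000 permutations give is 1e-05. Groups of 3 or 4 libraries are too small for a value within each, and the libraries share genotype and sex differences.

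*Osr1* ran against the genes of the committed nephron, which come on as progenitors leave the cap. Its correlation with the median level of the 12 committed genes was −0.918 (permutation p = 2e-05, adjusted 0.0004; rho = −0.915, permutation p = 0.00052, n = 10), and r was −0.907 without control replicates 1 and 3, the 2 farthest libraries, and −0.846 without control replicate 3 alone. *Meox1* (r = −0.862, permutation p = 0.0104, adjusted 0.0426; rho = −0.636, permutation p = 0.0543), *Cited1* (r = −0.697, permutation p = 0.00548, adjusted 0.0365; rho = −0.77, permutation p = 0.0122) and *Crym* (r = −0.697, permutation p = 0.0118, adjusted 0.0426; rho = −0.77, permutation p = 0.0122) also ran against the committed genes. Without control replicates 1 and 3 these were −0.363 for *Meox1*, whose relation thus rested on those libraries, −0.583 for *Cited1* and −0.637 for *Crym*. *Six2* had r of −0.653 (permutation p = 0.0183, adjusted 0.05; rho = −0.782, permutation p = 0.0108) and −0.803 without those 2 libraries. *Pax2* went the other way with r of 0.846 (permutation p = 0.021, adjusted 0.0548; rho = 0.394, permutation p = 0.264), a relation that rested on the 2 libraries, since r was −0.053 without them. *Pax2* also ran with the ureteric epithelium genes (r = 0.869, permutation p = 0.0149, adjusted 0.0426; rho = 0.552, permutation p = 0.105). Its r was 0.396 without control replicate 3, and 0.478 without control replicate 3 and wild-type replicate 1. *Osr1* ran against the ureteric genes (r = −0.85, permutation p = 0.0035, adjusted 0.0262; rho = −0.588, permutation p = 0.0807), with r of −0.675 without control replicate 3. That r was −0.501 without the 2 libraries farthest on the ureteric list, control replicate 3 and wild-type replicate 1. *Cited1* (r = −0.627, permutation p = 0.0108, adjusted 0.0426; rho = −0.552, permutation p = 0.105) and *Sall1* (r = 0.678, permutation p = 0.0121, adjusted 0.0426; rho = 0.685, permutation p = 0.034) came to −0.276 and 0.594 with the ureteric genes without control replicate 3 and wild-type replicate 1. Without control replicate 3 alone they came to −0.45 and 0.429. *Sall1* ran against the median of the stromal genes (r = −0.781, permutation p = 0.00755, adjusted 0.0408; rho = −0.794, permutation p = 0.00892). That r was −0.753 without control replicate 3, and −0.87 without the 2 libraries farthest on the stromal list, wild-type replicates 4 and 2. The stromal median ran only from 6.13 to 6.39 on the log2 scale. It was lowest in wild-type replicate 4, whose summed stromal FPKM of 1520 was the highest of wild-type, so it did not follow the stromal sum. *Meox1*, the member also known from the somites, had r of 0.634 with the skeletal muscle genes (permutation p = 0.0615, adjusted 0.109; rho = 0.394, permutation p = 0.265) and 0.103 without control replicate 3. Without the 2 libraries farthest on the muscle list, control replicate 3 and Ntn1SPKO replicate 2, r was 0.567. *Pax2* ran against the skeletal muscle genes (r = −0.762, permutation p = 0.0145, adjusted 0.0426; rho = −0.588, permutation p = 0.0806), with r of −0.416 without control replicate 3 and −0.265 without those 2 libraries. The FPKM used here do not add up to a fixed total, and the part of the scaling between libraries in these relations was not tested.

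The genes most like each member over the 10 libraries, among the 13181 genes whose mean reached 1 FPKM, are given by Pearson r as a description. They were *Nbr1* (0.924), *Ajap1* and *Tafa5* for *Six2*, *Fgf10* (0.912), *Calcrl* and *Ctdnep1* for *Eya1*, and *Tbc1d9* (0.994), *Pds5a* and *Cmtm4* for *Pax2*. For *Sall1* they were *Tarbp1* (0.982), *Gm45062* and *Sel1l3*, and for *Osr1* they were *Rspo3* (0.971), a secreted Wnt enhancer, *Derl1* and *Galns*. *Cited1* was nearest to *Fbxl15* (0.956), *Crym* (0.955) and *Cldn9* (0.952), *Crym* to *Cited1*, *Manbal* (0.946) and *Ccnb1ip1* (0.943), and *Meox1* to *Mest* (0.958), *Kdelr1* (0.95) and *Mfge8* (0.943). Only the pair of *Cited1* and *Crym* named each other.

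The level of each regulator relative to *Six2* in the same library compares the members with each other. Such a ratio stays inside the progenitor programme only if both genes are read in progenitors alone. Whole-kidney RNA does not show that, and *Pax2*, *Osr1* and *Meox1* are also known from other tissues. The part of tissue mix in these ratios was not tested. *Meox1* per *Six2* was 0.289, 0.279, 0.278 and 0.265 in wild-type kidneys and 0.214, 0.234 and 0.224 in Ntn1SPKO kidneys, so all 3 mutant libraries lay below all 4 wild-type libraries. The log2 difference was −0.31 with an exact permutation p of 0.0286, the smallest this design allows, and 0.573 after adjustment over the 21 ratios tested. Leaving out each library in turn gave −0.34 to −0.28. Foxd1GC control kidneys, at 0.269, 0.203 and 0.363, spanned both other groups, and against them the mutant difference of −0.27 had an exact permutation p of 0.4 and came to −0.0589 without control replicate 3. *Cited1* per *Six2* also separated from wild-type, at 0.527, 0.562 and 0.566 in Ntn1SPKO against 0.587, 0.597, 0.8294 and 0.678 in wild-type kidneys (log2 difference −0.27, exact permutation p = 0.0857, adjusted 0.573). Against wild-type *Six2* itself was 0.24 higher on the log2 scale, while *Meox1* differed by −0.07 and *Cited1* by −0.04. These 2 ratio differences thus came more from the *Six2* denominator than from lower *Meox1* or *Cited1*. How many other genes separate per *Six2* was not tested. *Crym* per *Six2* separated from control kidneys, at 0.539, 0.544 and 0.568 against 0.663, 0.595 and 0.667 (log2 difference −0.22, exact permutation p = 0.1, adjusted 0.573). None of these differences passed the adjusted threshold, and the ratios share *Six2* as their denominator, so they are not independent of each other.

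*Osr1* per *Six2* ran only from 0.303 to 0.314 in wild-type kidneys, from 0.303 to 0.385 in control and from 0.282 to 0.33 in mutant kidneys. Estimated counting error was up to 4.4% for *Osr1* and 2.3% for *Six2*, so the narrow wild-type range is not read as a trait of the gene. *Pax2* per *Six2* was the least constant, from 0.323 in control replicate 3 to 1.01 in wild-type replicate 2, with 0.737 to 0.815 in Ntn1SPKO kidneys. *Eya1* and *Sall1* per *Six2* overlapped between all groups. The adjusted p-values of the 21 ratios were 0.573 to 0.943 (exact permutation tests).

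**Figure D4:**
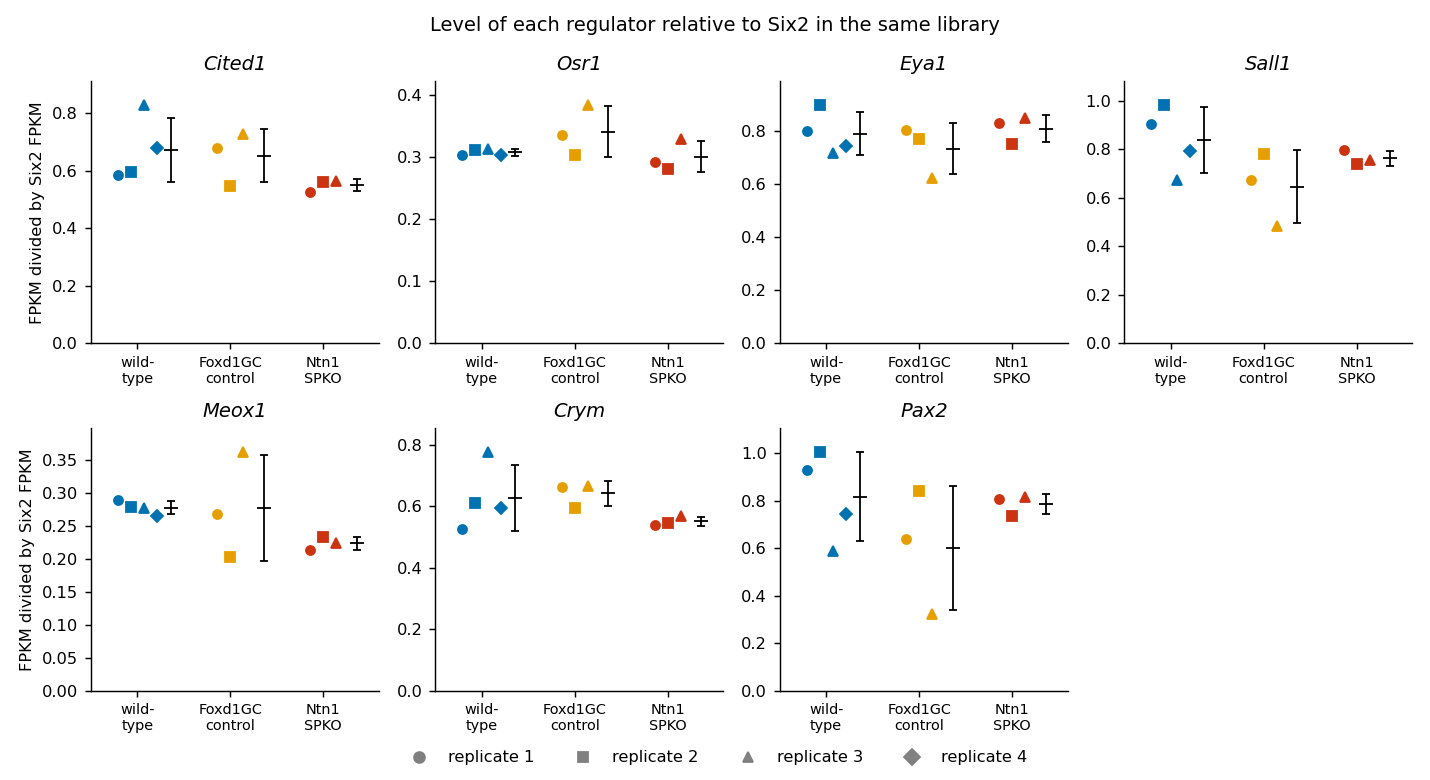
FPKM of 7 regulators divided by *Six2* FPKM of the same library (vertical axis, from 0) in wild-type (n = 4), Foxd1GC control (n = 3) and Ntn1SPKO (n = 3) kidneys; each marker is a library, its shape is the replicate number, and the bar is the mean ± SD. Ntn1SPKO libraries lie below all wild-type libraries for *Meox1* (at most 0.234 against at least 0.265) and *Cited1*, and below all control libraries for *Crym*.

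Of 26 further genes of the cap mesenchyme, 25 passed the filter of a mean of at least 0.5 FPKM, and none was called in any comparison. Against control kidneys 20 had a positive and 5 a negative log2 fold change in Ntn1SPKO kidneys, with a median of 0.11 where all genes tested had 0.007, and 2 passed an unadjusted p under 0.05, beside 10.7% of all genes. These were *Six4* (0.33 ± 0.13), a paralogue of *Six2*, and *Mycn* (0.40 ± 0.16), a Myc factor of cycling progenitors, both with an adjusted p of 0.447 (limma). *Kif26b*, a kinesin of progenitor adhesion (0.20 ± 0.09), and *Hoxc11* (0.24 ± 0.14) were next in rank. Without control replicate 3 the counts were 19 and 6, with 0 at an unadjusted p under 0.05. Against wild-type kidneys the mutant counts were 17 and 8 with a median of 0.12, led in rank by *Kif26b* (0.30 ± 0.15), *Spock2* (0.27 ± 0.14), *Mycn* (0.14 ± 0.07) and *Rspo1* (0.19 ± 0.11), and 0 passed an unadjusted p under 0.05. In control against wild-type kidneys they were 15 and 10 with a median of 0.03, again with 0 at that limit. *Mycn* (−0.26 ± 0.15), *Hoxc11* (−0.21 ± 0.13) and *Rspo1* (0.16 ± 0.11) were among the first in rank there.

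Genes of the committed nephron spread more widely than the regulators, and the direction of their median, though not of each gene, depended on which control was used. All 12 had a positive log2 fold change in Ntn1SPKO against Foxd1GC control kidneys (median 0.50), but only *Cdh4* (0.43 ± 0.15), a cadherin, passed an unadjusted p under 0.05 and none was called (smallest adjusted p = 0.447, limma). *Wnt4*, the signal that drives the change to epithelium, read 18.9, 18.3 and 18.4 FPKM in mutant and 8.33, 17.5 and 2.50 FPKM in control kidneys (1.36 ± 0.64), followed by *Greb1* (0.56 ± 0.27) and *Lef1* (0.86 ± 0.53). Without control replicate 3 the split was 10 and 2, the median 0.11, and 0 passed an unadjusted p under 0.05. Against wild-type kidneys 4 were positive and 8 negative in mutants (median −0.37), and 6 passed an unadjusted p under 0.05, 2 of them positive, beside 5.76% of all genes. The Notch target *Hes5* read 0.827, 0.691 and 0.77 FPKM in Ntn1SPKO and 1.75 to 2.93 FPKM in wild-type kidneys (−1.45 ± 0.23, adjusted p = 0.14, limma), and the Notch ligand *Dll1* (−0.79 ± 0.17), *Cdh6* (−0.40 ± 0.10) and *Lhx1* (−0.54 ± 0.15) came next. *Hes5* in control kidneys, at 0.502, 2.32 and 0.333 FPKM, ran from below the mutant values to inside the wild-type range.

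In Foxd1GC control against wild-type kidneys 12 of 12 committed genes were negative (median −0.81) and 7 passed an unadjusted p under 0.05, beside 7.06% of all genes, led by *Cdh6* (−0.41 ± 0.11), *Fgf8* (−0.47 ± 0.13), *Dll1* (−0.87 ± 0.23) and *Lef1* (−1.33 ± 0.49). None was called (smallest adjusted p = 0.665, limma). Without control replicate 3 the split was 11 and 1, the median −0.46, and 3 passed. The medians of the 8 regulators in the same 3 comparisons were −0.05, 0.16 and 0.16. Control replicates 1 and 3 had the lowest sums of the committed genes, 95.6 and 54.1 FPKM, and they also had the highest *Osr1* of the series, 26.8 and 37.1 FPKM.

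**Figure D5:**
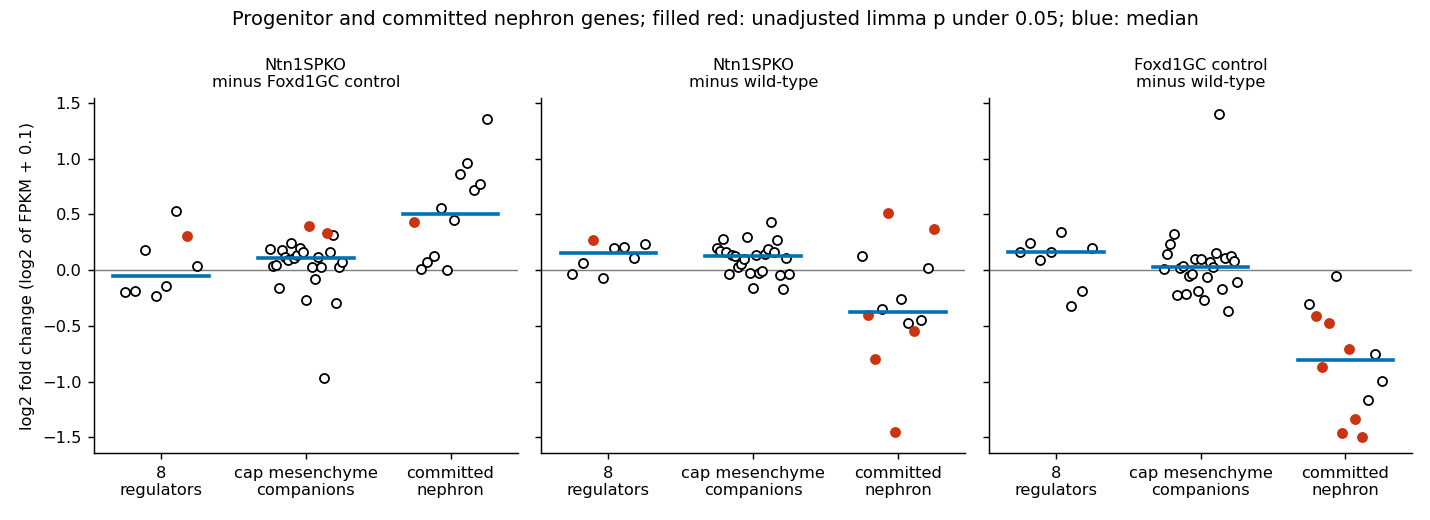
Log2 fold changes (vertical axis, on the log2(FPKM + 0.1) scale) of the 8 regulators, 25 cap mesenchyme companions and 12 committed nephron genes in the 3 comparisons; each circle is a gene, filled red at an unadjusted limma p under 0.05, and the blue line is the median of the list. The regulators stay between −0.32 and 0.53, while the median of the committed genes is 0.50, −0.37 and −0.81.

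Other cell types moved beside these values. Over the same libraries the summed FPKM of 10 stromal genes was 1210 to 1520 in wild-type, 1252 to 2041 in control and 1240 to 1354 in Ntn1SPKO kidneys, and the stromal gene *Foxd1*, of which the Cre allele replaces a copy, was 24.1, 21.3, 21.5 and 30.7 FPKM in wild-type, 19.7, 14.7 and 25.6 FPKM in control and 14.3, 15.4 and 14.2 FPKM in Ntn1SPKO kidneys. The 6 endothelial genes summed to 112 to 157 FPKM in all libraries and the 6 gonad and adrenal genes to at most 1.37 FPKM. The 6 erythroid genes found ran from 3271 to 12590 FPKM, highest in control replicates 1 and 3 and Ntn1SPKO replicate 3. Skeletal muscle genes summed to 95.1 to 176 FPKM in wild-type and 9.25 to 58.9 FPKM in Ntn1SPKO kidneys, and their part in the levels of the 8 regulators was not tested.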

How the data were processed

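RNA was from whole E13.5 kidneys (4 wild-type, 3 Foxd1GC control and 3 Ntn1SPKO libraries). According to the methods of the study, the authors quantified reads with Salmon against coding sequences of Ensembl GRCm38 and imported them to genes with tximport. The deposited values used here are the authors' FPKM per gene, and the step from estimated counts to FPKM is not given in the sources used here. All 10 columns were mapped to groups by the labels.

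Each comparison used its own libraries. Genes whose mean over the libraries compared reached 0.5 FPKM were tested on log2(FPKM + 0.1), a pseudocount that understates changes of low genes, with limma 3.58.1 in R 4.3.3 (eBayes with an intensity trend, Benjamini-Hochberg over all genes tested). Calls needed a difference of 2-fold or more and an adjusted p under 0.1. All 8 members passed the filter in each comparison. Single members and ratios to *Six2* were tested with two-sided exact permutation tests, and correlations with 100000 permutations (scipy 1.17.1), adjusted over 60 relations: 28 pairs of members and 32 of a member with the median of a marker list. The steps were checked on simulated data.

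The members, lists and named genes were chosen with earlier results of these data known. Beside the 8 members, the 4 genes with the smallest limma p of the cap mesenchyme and committed nephron lists were named in each comparison, with *Ntn1*, *Foxd1* and the 3 genes most like each member. *Wnt4* and *Hes5* levels by library, and the promoter windows shown, were picked after values were seen. 1 gene that this rule names is not reported here. Marker lists covered stroma, ureteric epithelium, skeletal muscle, gonad and adrenal, endothelium, erythroid cells and Y-linked genes. Alternatives were other pseudocounts, filters and scalings, no trend, robust eBayes, 1 fit over all libraries, the replicate number as a block, embryo sex as a covariate and leaving out each library.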

Additional observations from a re-analysis of the deposited data

Results flagged for a closer look

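In wild-type kidneys *Pax2* read 45.5 FPKM in replicate 3 and 60.7 to 63.4 FPKM in the other 3 libraries. The gap between replicate 3 and its nearest neighbour was 0.849 of the whole range of the group, above Dixon's 95% critical value for 4 samples. Of 15 gene levels and ratios tested in this way in the wild-type group this was the only one past the value, and chance passes about 1 in 20. Wild-type replicate 3 was also the only wild-type library with Y-linked transcripts, and it had the highest *Cited1* (64.2 FPKM) and *Crym* (60.1 FPKM) of its group. Its FPKM over all entries summed to 1002638, against 795829 to 809645 in the other 3 libraries. Its erythroid genes summed to 8091 FPKM, against 3331 to 4405 FPKM. The parts of sex, of the summed FPKM and of erythroid RNA in its *Pax2* level were not tested.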

How the results depend on the processing

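The count of members called was 0 in each comparison under every alternative run, while calls over all genes, 8, 7 and 1 as reported, ran from 0 (all 10 libraries in 1 fit) to 78 (without Foxd1GC control replicate 2), 187 (embryo sex) and 20 (without Foxd1GC control replicate 2). Of 448 alternative log2 fold changes of members 429 kept their sign, and of 245 alternative ratio differences 235 did. With embryo sex as a covariate the differences between Ntn1SPKO and control kidneys changed sign for *Cited1* (0.21), *Osr1* (0.19), *Meox1* (0.35) and *Crym* (0.0898), and that between Ntn1SPKO and wild-type kidneys for *Crym* (−0.36). *Cited1* against wild-type changed sign with libraries scaled to the same summed FPKM (0.0198) and with the replicate block (0.0495). The replicate number did not pair the libraries: deviations of same-numbered libraries correlated by −0.039 to 0.078, wild-type replicate 4 had no partner, and the replicate block changed no call. Over the fits that leave out 1 library each, the ranges that crossed 0 were, for Ntn1SPKO against control, −0.0471 to 0.15 (*Six2*), −0.30 to 0.0597 (*Osr1*) and −0.52 to 0.0865 (*Meox1*). Against wild-type they were −0.15 to 0.10 (*Cited1*), −0.17 to 0.0195 (*Meox1*) and −0.0623 to 0.21 (*Crym*), and for control against wild-type −0.0331 to 0.36 (*Cited1*) and −0.16 to 0.45 (*Meox1*). Ratios to *Six2* crossed 0 for Ntn1SPKO against wild-type in *Osr1* (−0.10 to 0.0107), *Eya1* (−0.0065 to 0.10) and *Pax2* (−0.17 to 0.0838), and for control against wild-type in *Cited1* (−0.12 to 0.0776), *Eya1* (−0.18 to 0.0013), *Meox1* (−0.25 to 0.17) and *Crym* (−0.0322 to 0.15). The cause was not tested. Leaving out control replicate 3 was added for the gene lists after seeing the data. The number of libraries, more than the depth, limits the precision of most of these values. The spread of *Osr1* in Ntn1SPKO kidneys was below its largest estimated counting error.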
